A study of Mus musculus with 20 samples.

Results

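RNA-seq of SCCVII tumors was used to ask what APG-157 added to combined anti-PD-1 and anti-CTLA-4 treatment. The comparison holds 4 of the 20 libraries of the series, chosen by their treatment labels: 2 that received APG-157 on top of anti-PD-1 plus anti-CTLA-4 (the triple combination, replicates A and B) and 2 that received anti-PD-1 + anti-CTLA-4 without it (the dual blockade, replicates A and B). SCCVII is a murine squamous cell carcinoma line that was grown under the skin of immunocompetent C3H/HeOuJ mice. APG-157 is a botanical drug that contains curcumin and other molecules of turmeric, and it was given in the food, while both antibodies were injected into the peritoneum. All 4 tumors therefore received the same antibody pair and differed by APG-157 in the diet. The other 16 libraries (8 groups of 2: control, APG-157, anti-PD-1 or anti-CTLA-4 alone, each of these with APG-157, anti-CD8, and anti-CD8 given with APG-157 and anti-CTLA-4) served for the estimate of the spread and as a range of levels. The labels give neither the age or sex of the mice nor whether replicates A and B were separate tumors, so the p-values measure the spread between these libraries only.

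PD-1 and CTLA-4 are inhibitory receptors of T cells. PD-1 binds PD-L1 and PD-L2 and dampens effector T cells in tissue, while CTLA-4 competes with CD28 for CD80 and CD86 and is carried at high density by regulatory T cells. When either brake is blocked, T cells that recognise the tumor can release interferon gamma, which acts through transcription factors such as IRF1 to switch on antigen presentation genes, guanylate binding proteins and the chemokines that recruit further T cells. Curcumin is known as an inhibitor of NF-kB signaling and an activator of the NRF2 stress response, so targets of both were among the gene lists examined.

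Library totals were 52358870 and 50821592 counts in the triple combination and 43920525 and 57893738 counts in the dual blockade. Of 19567 genes tested with edgeR's quasi-likelihood test on all 20 libraries, 0 passed an adjusted p of 0.05 (0% called), and the smallest adjusted p was 1. At an unadjusted p under 0.05, 163 genes were higher (0.833%) and 155 were lower (0.792%) in the triple combination. DESeq2 called 2 genes in a fit of all 20 libraries (Gm14288 and Gm47191, with 524 at an unadjusted p under 0.05) and 40 genes, 9 higher and 31 lower, in a fit of the 4 libraries alone. Over all genes the median log2 fold change was 0.0046. Values below are CPM, read counts scaled to a common library total after TMM normalisation, fold changes are log2 of the triple combination over the dual blockade ± their standard error (SE) by edgeR, and the adjusted p of each is 1. With 2 libraries against 2, an exact permutation test of a single value cannot go below p = 0.333.

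Replicates of the triple combination were unlike each other. Their biological coefficient of variation was 46.8%, against 20.9% between the 2 dual libraries. The sex-linked genes Xist and Uty also varied, Xist between the triple replicates and Uty between the groups. Xist had 158 and 6837 counts in the triple combination and 5658 and 7175 counts in the dual blockade. Uty had 76 and 92 counts in the triple combination and 245 and 445 counts in the dual blockade. DESeq2 on the 4 libraries alone called Uty (log2 fold change -2.07, adjusted p = 3.87e-05). The cause of these differences was not tested. Replicate A of the triple combination carried skeletal muscle genes. It had 10 of 25 T cell genes within the dual values and 1 above them, with the rest below both dual libraries. Replicate B was low in T cell, interferon gamma response and antigen presentation genes. The epithelial markers Epcam (0.208 and 0.155 CPM in the triple combination, 0.283 and 0.277 CPM in the dual blockade) and Krt5 (0 in all 4 libraries) were near or at 0, whereas the simple keratin Krt8 was abundant at 510 and 807 CPM in the triple combination and 714 and 599 CPM in the dual blockade.

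**Figure D1:**
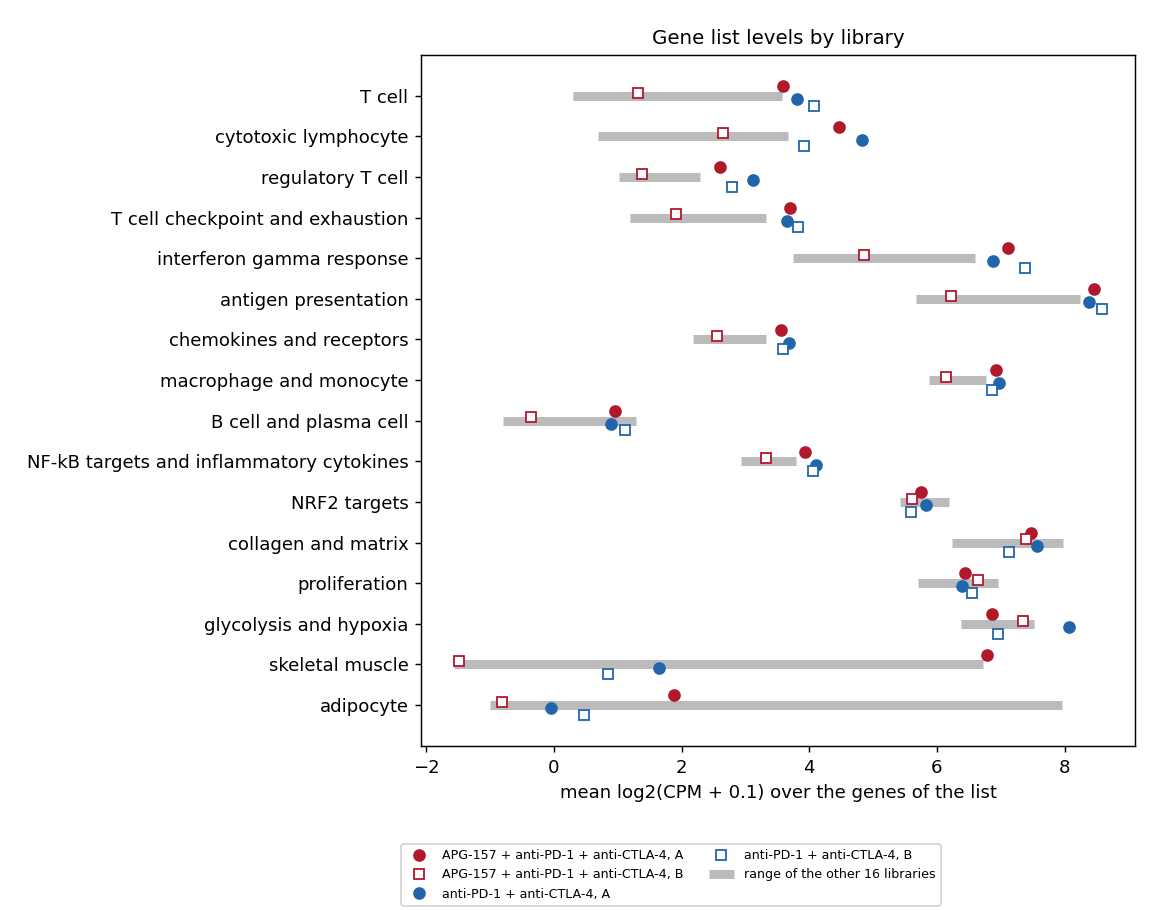
Level of 16 gene lists in each library, as the mean of log2(CPM + 0.1) over the genes of a list, with the triple combination in red, the dual blockade in blue and the range of the other 16 libraries as a grey bar. Replicate B of the triple combination (open red square) lies inside the grey bar for each immune list drawn, whereas the other 3 libraries lie above its upper end for the T cell list, and the glycolysis list is highest in replicate A of the dual blockade.

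The interferon gamma response and antigen presentation lists, described below, were lowest in 1 library for each of their genes, so promoters of 4 of these genes are shown first. Irf1 encodes a transcription factor that relays the signal, Gbp5 a guanylate binding protein, Cxcl10 a T cell chemokine and B2m the light chain of MHC class I. The windows run from 250 bases before to 50 bases after the annotated start, in RefSeq's GRCm38.p6 build, an earlier build than the GRCm39 of the counts (chr11:53769764-53770063 on the plus strand, chr3:142496684-142496983 on the plus strand, chr5:92348840-92349139 on the minus strand and chr2:122147437-122147736 on the plus strand). Capitals mark matches to the interferon gamma activated site GAS (TTCNNNGAA) or to the interferon-stimulated response element ISRE (GAAA and GAAA with 2 bases between them, or TTTC and TTTC likewise on the other strand).

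Irf1: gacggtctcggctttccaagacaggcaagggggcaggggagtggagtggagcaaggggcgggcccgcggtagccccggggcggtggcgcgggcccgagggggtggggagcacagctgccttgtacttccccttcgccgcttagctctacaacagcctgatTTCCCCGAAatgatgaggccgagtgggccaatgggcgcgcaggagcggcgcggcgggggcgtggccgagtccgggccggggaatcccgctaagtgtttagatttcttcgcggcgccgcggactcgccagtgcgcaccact

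Gbp5: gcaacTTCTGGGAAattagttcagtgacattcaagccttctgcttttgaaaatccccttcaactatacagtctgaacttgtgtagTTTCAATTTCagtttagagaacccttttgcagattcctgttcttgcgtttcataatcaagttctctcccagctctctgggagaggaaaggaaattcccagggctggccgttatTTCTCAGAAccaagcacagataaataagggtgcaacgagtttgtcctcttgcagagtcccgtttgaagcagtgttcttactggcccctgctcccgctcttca

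Cxcl10: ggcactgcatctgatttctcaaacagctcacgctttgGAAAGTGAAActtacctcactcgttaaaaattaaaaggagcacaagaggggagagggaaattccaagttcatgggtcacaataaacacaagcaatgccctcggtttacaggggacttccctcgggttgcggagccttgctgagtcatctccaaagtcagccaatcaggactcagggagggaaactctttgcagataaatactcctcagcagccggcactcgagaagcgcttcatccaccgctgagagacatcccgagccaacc

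B2m: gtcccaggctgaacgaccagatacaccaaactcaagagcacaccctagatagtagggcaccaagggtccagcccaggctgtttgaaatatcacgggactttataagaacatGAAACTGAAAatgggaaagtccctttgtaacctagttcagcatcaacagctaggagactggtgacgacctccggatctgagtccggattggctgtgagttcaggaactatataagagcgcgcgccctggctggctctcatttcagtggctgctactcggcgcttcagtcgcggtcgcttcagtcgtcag

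The GAS match of Irf1 began 90 bases before the start (position -90). Gbp5 had GAS matches at -245 and -52 and an ISRE match at -165, Cxcl10 an ISRE match at -213 and B2m an ISRE match at -139. Windows were found for 19 of the 28 genes of the interferon gamma response list, and 14 of them (73.7%) held a GAS or an ISRE match, against 11.4% of all 27025 windows of that length. Among 16 windows of the 21 antigen presentation genes, 3 (18.8%) held a match. These matches describe the letters and not binding. The interferon gamma response list holds genes chosen for that response, so its higher share follows partly from the choice.

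Interferon gamma signaling was measured first at its relay gene Irf1. Irf1 was at 334 and 119 CPM in the triple combination, against 273 and 386 CPM in the dual blockade. Replicate A of the triple combination lay between the dual libraries and replicate B lay below them, so the groups overlapped. The log2 fold change of Irf1 was -0.54 ± 0.49 (SE) by edgeR's quasi-likelihood test.

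Targets of the pathway were also lowest in replicate B. Gbp5 was at 121 and 18.2 CPM in the triple combination, against 104 and 142 CPM in the dual blockade. Cxcl10 was at 115 and 42.2 CPM in the triple combination and 107 and 181 CPM in the dual blockade. Cxcl9, the related chemokine, was at 467 and 41.4 CPM in the triple combination and 498 and 863 CPM in the dual blockade. The 3 other libraries lay well above replicate B for each of these genes. Cxcl11, another ligand of the receptor Cxcr3, did not overlap between groups, with 21.7 and 7.66 CPM in the triple combination and 31.4 and 47.6 CPM in the dual blockade (log2 fold change -1.43 ± 0.74). Nos2, the inducible nitric oxide synthase, was at 26.5 and 3.99 CPM in the triple combination and 71.0 and 28.7 CPM in the dual blockade, with a log2 fold change of -1.71 ± 0.76 (unadjusted p under 0.05), the 1 gene of this list with an unadjusted p under 0.05. Socs1, the feedback inhibitor of the pathway, was at 17.9 and 6.79 CPM in the triple combination and 13.5 and 26.4 CPM in the dual blockade.

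Over the whole interferon gamma response list (28 genes tested of 28), the median log2 fold change was -0.73, beside 0.0046 over all genes. The groups did not overlap for 5 of the 28 genes, all lower in the triple combination, where 14.6% of all genes tested were lower without overlap. Replicate B of the triple combination was the lowest of the 4 libraries for 28 of 28 genes, a position it held for 30.6% of all genes tested. The list level, the mean of log2(CPM + 0.1), was 7.11 and 4.86 in the triple combination and 6.88 and 7.39 in the dual blockade. Without replicate B of the triple combination the median was -0.07, and without its replicate A it was -2.22. The size of the difference therefore rested on replicate B. Both control tumors were at 4.93 and 5.00, so replicate B stood near control, while replicate A and both dual libraries were the 3 highest of all 20 libraries.

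Antigen presentation genes showed a like split. B2m was at 4139 and 2533 CPM in the triple combination and 4097 and 4541 CPM in the dual blockade. H2-D1, a classical MHC class I heavy chain, was at 1883 and 1023 CPM in the triple combination and 1946 and 1957 CPM in the dual blockade (log2 fold change -0.43 ± 0.35). Tap1, which carries peptides into the endoplasmic reticulum, was at 263 and 80.6 CPM in the triple combination, against 264 and 318 CPM in the dual blockade. The MHC class II chain H2-Aa was at 2377 and 106 CPM in the triple combination, against 2363 and 2593 CPM in the dual blockade. H2-Aa thus spanned a wider range between the triple replicates than B2m or H2-D1. All 21 genes of the list were lowest in replicate B, beside 30.6% of all genes tested, 7 (33.3%) were lower in the triple combination without overlap, beside 14.6% of all genes tested, and the median log2 fold change was -0.61.

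**Figure D2:**
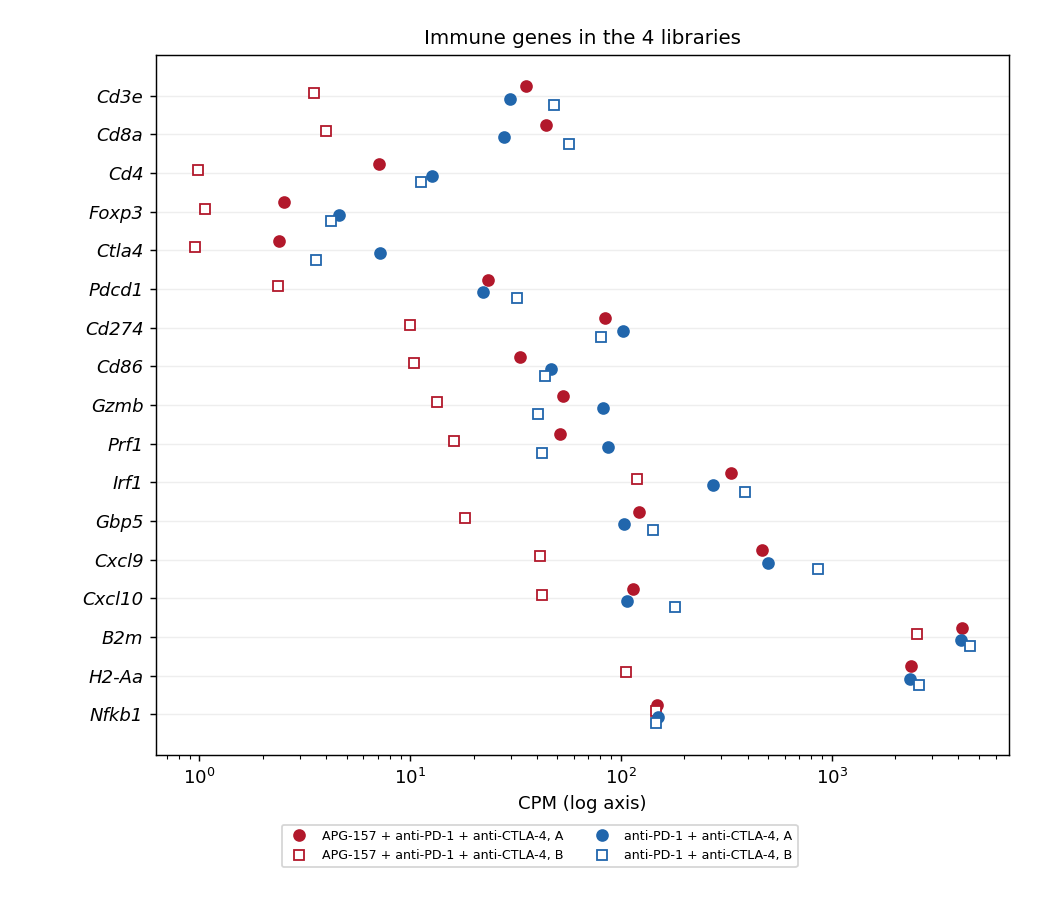
CPM on a log axis of 17 immune genes in each of the 4 libraries, with the triple combination in red and the dual blockade in blue (filled circles replicate A, open squares replicate B). Replicate B of the triple combination is the lowest point for Cd3e (3.49 CPM), Cd8a (3.99 CPM) and H2-Aa (106 CPM), while the 4 points of Nfkb1 lie between 146 and 150 CPM.

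T cell genes are described next, beginning with the receptor complex. Cd3e, a signaling chain of the T cell receptor, was at 35.5 and 3.49 CPM in the triple combination and 29.7 and 48.1 CPM in the dual blockade. Cd8a, which marks cytotoxic T cells, was at 43.9 and 3.99 CPM in the triple combination and 28.0 and 56.6 CPM in the dual blockade. Both genes overlapped between groups, with log2 fold changes of -0.995 ± 1.15 for Cd3e and -0.82 ± 1.23 for Cd8a. Cd4, the helper T cell coreceptor, did not overlap, with 7.14 and 0.989 CPM in the triple combination and 12.8 and 11.2 CPM in the dual blockade (log2 fold change -1.56 ± 0.99). Icos, a costimulatory receptor, was at 5.29 and 0.969 CPM in the triple combination and 10.4 and 7.72 CPM in the dual blockade (-1.53 ± 0.77). Il7r, the interleukin 7 receptor, was at 8.34 and 3.92 CPM in the triple combination and 25.5 and 7.95 CPM in the dual blockade.

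All 25 genes of the T cell list were tested, with a median log2 fold change of -1.06. Of these, 13 (52%) were lower in the triple combination without overlap and 0 were higher, beside 14.6% and 13.8% of all genes tested, and 24 of 25 were lowest in replicate B. The list level was 3.59 and 1.31 in the triple combination, against 3.80 and 4.07 in the dual blockade, and 1.60 and 1.91 in control. Without replicate B the median was -0.32, and without replicate A it was -3.05, so the size of the difference rested on replicate B while its sign did not. In bulk tumor RNA, fewer T cells and less of each RNA per T cell cannot be told apart.

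Ratios within the T cell genes are given as description only. In bulk RNA they cannot tell fewer T cells from less RNA per T cell. Cd8a per Cd3e was 1.24 and 1.14 in the triple combination and 0.944 and 1.18 in the dual blockade, and Pdcd1 per Cd3e was 0.660 and 0.678 in the triple combination and 0.743 and 0.670 in the dual blockade. Both ratios were thus nearly the same in replicate B, where the genes themselves were far lower than in replicate A. Foxp3 per Cd3e was 0.0712 and 0.306 in the triple combination and 0.155 and 0.0878 in the dual blockade. Gzmb per Cd3e, 1.497 and 3.85 in the triple combination and 2.79 and 0.841 in the dual blockade, was highest in replicate B of the triple combination. Ctla4 per Cd3e was 0.067 and 0.272 in the triple combination and 0.242 and 0.0745 in the dual blockade. Cd8a per Cd4 was 6.15 and 4.04 in the triple combination and 2.20 and 5.06 in the dual blockade.

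Among regulatory T cell genes, 6 of 12 were lower in both triple libraries than in both dual libraries (50%, beside 14.6% of all genes tested), none past the adjusted threshold. Foxp3, the defining transcription factor of these cells, was at 2.53 and 1.07 CPM in the triple combination and 4.60 and 4.23 CPM in the dual blockade, a log2 fold change of -1.29 ± 0.51 (unadjusted p under 0.05). Ctla4, the target of one antibody, was at 2.40 and 0.950 CPM in the triple combination and 7.19 and 3.58 CPM in the dual blockade (-1.68 ± 0.74, unadjusted p under 0.05). Tnfrsf4, the costimulatory receptor OX40, was at 2.04 and 0.795 CPM in the triple combination and 3.07 and 2.93 CPM in the dual blockade (-1.08 ± 0.49, unadjusted p under 0.05). Il2ra, the high-affinity interleukin 2 receptor chain, was at 5.19 and 2.42 CPM in the triple combination and 12.3 and 6.94 CPM in the dual blockade. These 4 genes did not overlap between groups. The other 6 overlapped, among them Ikzf2, a transcription factor of these cells, at 13.1 and 3.35 CPM in the triple combination and 14.7 and 12.0 CPM in the dual blockade. In the list 3 genes were lower with an unadjusted p under 0.05, beside 0.792% of all genes tested, and the median log2 fold change was -0.83. It was -0.36 without replicate B and -1.91 without replicate A. The Foxp3 and Ctla4 values lay inside the range of the other 16 libraries in the triple combination (0.280 to 3.07 CPM for Foxp3, 0.267 to 2.81 CPM for Ctla4) and above it in the dual blockade.

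Checkpoint receptors and their ligands had no single arrangement. Pdcd1, which encodes PD-1, was at 23.4 and 2.37 CPM in the triple combination and 22.1 and 32.2 CPM in the dual blockade. Cd274, which encodes PD-L1, was at 84.0 and 9.99 CPM in the triple combination and 103 and 80.1 CPM in the dual blockade. In both genes replicate A of the triple combination lay within the dual values. Pdcd1lg2 (PD-L2) was at 3.83 and 0.213 CPM in the triple combination and 5.83 and 4.23 CPM in the dual blockade. Cd86, a ligand of CTLA-4 and CD28, was at 33.2 and 10.4 CPM in the triple combination and 46.6 and 43.9 CPM in the dual blockade, a log2 fold change of -1.05 ± 0.54. Cd80, the other ligand, was at 13.6 and 14.4 CPM in the triple combination and 12.1 and 11.9 CPM in the dual blockade (0.22 ± 0.34). The groups were thus ordered oppositely for the 2 ligands of CTLA-4, but the Cd80 difference was smaller than its SE. Cd28 was at 7.57 and 0.931 CPM in the triple combination and 9.03 and 8.73 CPM in the dual blockade. Of the 16 genes of the T cell checkpoint list, 2 were lower without overlap (12.5%, beside 14.6% of all genes tested) and 15 were lowest in replicate B.

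Gzmb, Prf1 and Gzma overlapped between groups. Gzmb, a granzyme that triggers death of target cells, was at 53.2 and 13.4 CPM in the triple combination, against 82.7 and 40.5 CPM in the dual blockade (log2 fold change -0.89 ± 0.84). Prf1, the pore-forming perforin, was at 51.2 and 16.1 CPM in the triple combination, against 86.6 and 42.3 CPM in the dual blockade. Gzma was at 9.78 and 4.92 CPM in the triple combination, against 17.5 and 8.24 CPM in the dual blockade. For these 3 genes replicate B was lowest, yet its Gzmb and Prf1 values stood above both control libraries (3.07 and 5.02 CPM for Gzmb, 2.78 and 6.24 CPM for Prf1). Gzmk, another granzyme, did not overlap, at 3.59 and 0.252 CPM in the triple combination and 8.28 and 5.92 CPM in the dual blockade (-1.89 ± 1.52). Srgn, the proteoglycan that packs granules, did not overlap, at 156 and 143 CPM in the triple combination and 307 and 170 CPM in the dual blockade (-0.67 ± 0.31, unadjusted p under 0.05). Of 21 genes of the cytotoxic lymphocyte list, 3 were lower without overlap (14.3%, beside 14.6% of all genes tested).

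T cell receptor beta variable segments gave few counts, 482 and 48 in the triple combination and 362 and 586 in the dual blockade. The most frequent segment was Trbv2 in replicate A of the triple combination, with 42.1% (95% Wilson interval 37.8 to 46.6%), and Trbv13-2 in replicate B, with 18.8% (10.2 to 31.9%). In the dual blockade it was Trbv13-2 in replicate A, with 29.8% (25.4 to 34.7%), and Trbv19 in replicate B, with 28.5% (25.0 to 32.3%). Trbv13-3 took 4.56% (3.03 to 6.81%) and 14.6% (7.25 to 27.2%) in the triple combination, against 10.8% (7.98 to 14.4%) and 14.2% (11.6 to 17.2%) in the dual blockade. The leading segment thus differed between libraries of the same group, and the intervals cover counting error only. Trbc1, 1 of 2 near-identical beta constant genes between which reads can be split uncertainly, was at 5.89 and 2.77 CPM in the triple combination and 11.8 and 28.3 CPM in the dual blockade (log2 fold change -2.21 ± 0.68, unadjusted p under 0.05). Its copy Trbc2 was at 39.9 and 23.6 CPM in the triple combination and 42.7 and 54.5 CPM in the dual blockade.

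Antibody genes did not all lie one way. Ighm, the heavy chain of IgM, overlapped between groups, at 116 and 47.6 CPM in the triple combination and 60.9 and 98.2 CPM in the dual blockade. Igha, the heavy chain of IgA, was at 4.61 and 1.24 CPM in the triple combination, against 13.0 and 25.8 CPM in the dual blockade (log2 fold change -2.73 ± 0.99, unadjusted p under 0.05). Jchain, which links IgA and IgM units, was at 2.93 and 0.776 CPM in the triple combination, against 4.98 and 8.87 CPM in the dual blockade (-1.90 ± 0.84, unadjusted p under 0.05). Igkc, the kappa constant region, was at 10.9 and 1.80 CPM in the triple combination, against 12.6 and 26.5 CPM in the dual blockade. The kappa variable segment Igkv1-110 was at 0.0755 and 0.0388 CPM in the triple combination and 0.283 and 1.82 CPM in the dual blockade, and reads of near-identical segments can be assigned to one another. Igha, Jchain, Igkc and Igkv1-110 did not overlap between groups. Over the 21 genes of the B cell and plasma cell list, 6 were lower and 1 was higher without overlap (28.6% and 4.76%, beside 14.6% and 13.8% of all genes tested), and 12 had a negative and 9 a positive fold change.

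Myeloid genes had no single arrangement. Adgre1, which encodes the macrophage marker F4/80, was at 251 and 150 CPM in the triple combination and 205 and 200 CPM in the dual blockade. C1qa, a complement component made by macrophages, was at 1047 and 538 CPM in the triple combination, against 1118 and 1264 CPM in the dual blockade. Ccr1, a chemokine receptor of myeloid cells, was lower in both triple libraries, with 55.7 and 61.5 CPM against 106 and 86.3 CPM in the dual blockade (log2 fold change -0.71 ± 0.29, unadjusted p under 0.05). The chemokine Ccl17, which attracts cells that carry Ccr4, was at 0.510 and 0.136 CPM in the triple combination and 1.72 and 0.866 CPM in the dual blockade (-1.99 ± 0.84, unadjusted p under 0.05). Of 42 chemokine and chemokine receptor genes, 10 were lower without overlap (23.8%, beside 14.6% of all genes tested) and 5 of the 42 were lower with an unadjusted p under 0.05, beside 0.792% of all genes tested. Arg1, an arginine-degrading enzyme of suppressive macrophages, was at 94.7 and 113 CPM in the triple combination and 523 and 106 CPM in the dual blockade. Mmp12, a macrophage elastase, was at 5.10 and 29.8 CPM in the triple combination and 91.8 and 5.99 CPM in the dual blockade. For Arg1 and Mmp12 the high value came from replicate A of the dual blockade alone, and the fold change of Mmp12 (-1.49 ± 1.07 on the log2 scale) was 1.55 without that library.

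Other genes of inflammation had no common pattern. Slc7a2, an arginine transporter, was at 14.8 and 2.21 CPM in the triple combination and 36.1 and 13.5 CPM in the dual blockade. Acod1, which makes itaconate, was at 74.5 and 10.9 CPM in the triple combination and 55.1 and 96.1 CPM in the dual blockade. Ltb4r1, a leukotriene B4 receptor, was at 4.66 and 5.70 CPM in the triple combination and 7.31 and 6.68 CPM in the dual blockade.

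Dendritic cell and mast cell genes placed replicate B of the triple combination below every other library. Its level was the lowest of all 20 libraries for both lists, and all 9 mast cell and eosinophil genes tested were lowest there among the 4 libraries. The dendritic cell list (17 genes) had a median log2 fold change of -0.36 and the mast cell list one of -0.57. Natural killer cell genes (11 tested of 13 listed) had a median of -0.53, type I interferon response genes (24 genes, 6 lower without overlap) one of -0.28 and complement genes (16 genes, 7 lower without overlap) one of -0.46. Endothelial genes (21 tested of 22, 2 lower without overlap) had a median of -0.21, and fibroblast genes (20 genes, 4 higher and 5 lower without overlap) one of 0.11. Lower members without overlap were 25% of the type I interferon, 43.8% of the complement, 9.52% of the endothelial and 25% of the fibroblast list, beside 14.6% of all genes tested, and higher ones 20% of the fibroblast list, beside 13.8%. In none of these lists did a gene pass adjustment by edgeR.

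NF-kB and its targets were examined because curcumin is known to inhibit this pathway. The subunit gene Nfkb1 was at 148 and 146 CPM in the triple combination and 150 and 147 CPM in the dual blockade, and the inhibitor gene Nfkbia was at 144 and 120 CPM in the triple combination and 132 and 146 CPM in the dual blockade. Neither gene separated the groups. Il1b, an inflammatory cytokine under NF-kB control, was at 4.91 and 2.52 CPM in the triple combination and 6.18 and 7.01 CPM in the dual blockade. Tnf was at 9.25 and 5.55 CPM in the triple combination and 7.31 and 10.2 CPM in the dual blockade. Of 28 genes of the list, 11 were lower and 1 was higher without overlap (39.3% and 3.57%, beside 14.6% and 13.8% of all genes tested), with a median log2 fold change of -0.33, and 22 were lowest in replicate B. The median was -0.08 without replicate B of the triple combination and -0.53 without its replicate A, so its size rested on replicate B. Stat3, a transcription factor that curcumin is also reported to inhibit, was at 176 and 113 CPM in the triple combination and 205 and 166 CPM in the dual blockade (-0.36 ± 0.20).

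Of the 29 NRF2 targets tested, 24 had a negative and 5 a positive fold change. Nqo1, a quinone reductase, was at 10.8 and 9.97 CPM in the triple combination, against 21.9 and 12.1 CPM in the dual blockade (log2 fold change -0.71 ± 0.24, unadjusted p under 0.05). Ephx1, an epoxide hydrolase, was at 69.3 and 64.2 CPM in the triple combination, against 44.8 and 50.2 CPM in the dual blockade (0.49 ± 0.20, unadjusted p under 0.05). Hmox1, heme oxygenase 1, was at 106 and 228 CPM in the triple combination and 390 and 99.8 CPM in the dual blockade, and Gclm, a subunit of the enzyme that limits glutathione synthesis, was at 28.2 and 26.8 CPM in the triple combination and 32.5 and 25.6 CPM in the dual blockade. Of 29 genes of the list, 8 were lower and 2 were higher without overlap (27.6% and 6.9%, beside 14.6% and 13.8% of all genes tested), and the median log2 fold change was -0.12. The Nqo1 difference was largest against replicate A of the dual blockade, and its log2 fold change was -0.22 without that library.

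Glycolysis and hypoxia genes set replicate A of the dual blockade apart. All 24 genes of the list were highest in that library, where 23.6% of all genes tested were. Ndrg1, a hypoxia-induced gene, was at 148 and 225 CPM in the triple combination and 684 and 161 CPM in the dual blockade. Hk2, which commits glucose to glycolysis, was at 77.8 and 62.4 CPM in the triple combination and 143 and 71.5 CPM in the dual blockade. The median log2 fold change of the list was -0.46, but 0.12 without replicate A of the dual blockade, so its direction rested on that library.

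Of the collagen and matrix genes, 22 of 34 had a positive and 12 a negative fold change. Col3a1, a fibrillar collagen, was at 2143 and 2354 CPM in the triple combination and 1750 and 1447 CPM in the dual blockade (log2 fold change 0.49 ± 0.22, unadjusted p under 0.05). Col1a2 was at 1661 and 1484 CPM in the triple combination and 1322 and 1123 CPM in the dual blockade. Col14a1, which binds collagen fibrils, was at 47.9 and 47.5 CPM in the triple combination and 31.8 and 21.1 CPM in the dual blockade. Col3a1, Col1a2 and Col14a1 did not overlap between groups. Eln, the elastin gene, lay the other way, with 66.2 and 51.2 CPM in the triple combination and 139 and 152 CPM in the dual blockade (-1.31 ± 0.82). Of 34 collagen and matrix genes, 9 (26.5%) were higher and 3 were lower without overlap, beside 13.8% and 14.6% of all genes tested, and the median log2 fold change was 0.16. It was -0.02 without replicate B of the triple combination and -0.04 without replicate B of the dual blockade, so its direction rested on these libraries.

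Proliferation and p53 target genes had list medians near that of all genes. Mki67, which marks cycling cells, was at 405 and 489 CPM in the triple combination and 369 and 374 CPM in the dual blockade (log2 fold change 0.27 ± 0.28). Ccng1, a p53 target, was at 311 and 384 CPM in the triple combination and 203 and 260 CPM in the dual blockade (0.59 ± 0.30). Both were higher in each triple library. Of 32 proliferation genes 7 were higher and 1 was lower without overlap (21.9% and 3.12%, beside 13.8% and 14.6% of all genes tested), with a median log2 fold change of 0.09. Of 24 p53 target genes 7 were higher and 4 were lower without overlap (29.2% and 16.7%), with a median of 0.06. The epithelial to mesenchymal transition genes Snai1 (12.7 and 15.1 CPM in the triple combination, 18.1 and 15.2 CPM in the dual blockade) and Cdh1 (2.91 and 3.49 CPM in the triple combination, 6.79 and 2.29 CPM in the dual blockade) gave a list median of -0.01 over 18 genes.

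Skeletal muscle genes were abundant in replicate A of the triple combination. Ttn, the giant sarcomere protein titin, was at 398 and 33.8 CPM in the triple combination and 27.4 and 19.1 CPM in the dual blockade. Acta1, skeletal actin, was at 1165 and 0.349 CPM in the triple combination and 28 and 13.5 CPM in the dual blockade. Another 5 genes of muscle (Myo18b, Ckmt2, Eef1a2, Sln and Tceal7) were between 9.85 and 58.3 CPM in replicate A, at or below 0.0194 CPM in replicate B, and at or below 1.91 CPM in the dual blockade. All 42 muscle genes were highest in replicate A, and the median log2 fold change of the list was 4.81, but -4.85 without that library. The summed level of the list was 9343 and 330 CPM in the triple combination and 483 and 381 CPM in the dual blockade, and that of 15 adipocyte genes, also all highest in replicate A, was 680 and 208 CPM in the triple combination and 274 and 254 CPM in the dual blockade. With the muscle list level as a covariate in the model the T cell list median was -1.47. The part of muscle in the other differences was not tested.

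**Figure D3:**
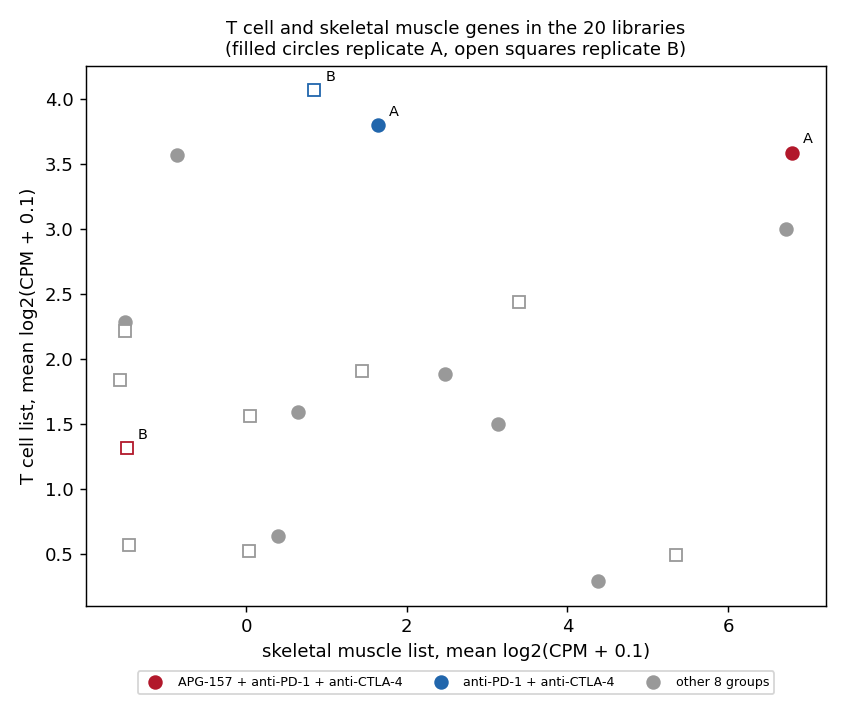
Level of the T cell list against that of the skeletal muscle list, each as mean log2(CPM + 0.1), in all 20 libraries. The triple combination (red) goes from 6.79 for muscle and 3.59 for T cell genes in replicate A to -1.48 and 1.31 in replicate B, while the dual blockade (blue) lies at 1.64 and 0.85 for muscle with T cell levels of 3.80 and 4.07.

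The named genes with the smallest unadjusted p were picked among non-overlapping genes, and a small p favors values close together within a group. Some were still apart in the triple combination, such as Neurl1a at 12.2 and 5.41 CPM and Map3k7cl at 2.15 and 1.05 CPM. Aspn, which encodes the matrix proteoglycan asporin, was at 58.1 and 49.1 CPM in the triple combination, against 19.2 and 24.9 CPM in the dual blockade (log2 fold change 1.28 ± 0.44, unadjusted p under 0.05). Ankrd1, a mechanically responsive target of YAP, was at 60.6 and 43.7 CPM in the triple combination, against 21.2 and 24.2 CPM in the dual blockade (1.20 ± 0.41, unadjusted p under 0.05). Egr1, an immediate early transcription factor, was at 107 and 134 CPM in the triple combination, against 81.2 and 71.5 CPM in the dual blockade (0.66 ± 0.20, unadjusted p under 0.05). For these genes both triple libraries lay above both dual libraries, as the selection required. Chrnb1, a subunit of the muscle acetylcholine receptor, was at 15.6 and 16.8 CPM in the triple combination, against 7.55 and 9.09 CPM in the dual blockade (0.96 ± 0.26, unadjusted p under 0.05). Trib2, a pseudokinase, was at 28.0 and 25.3 CPM in the triple combination and 16.3 and 18.5 CPM in the dual blockade. The other 5 higher genes (Neurl1a, Ntng1, Prkag3, Map3k7cl and Hs3st5) had log2 fold changes between 1.24 and 2.55.

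Lower genes of the same kind included regulators of vessels and of the circadian clock. Angpt2, a vessel-destabilising ligand of the receptor Tie2, was at 15.3 and 17.2 CPM in the triple combination, against 34.1 and 22.2 CPM in the dual blockade (log2 fold change -0.79 ± 0.24, unadjusted p under 0.05). Apln, an angiogenic peptide, was at 31.3 and 53.7 CPM in the triple combination, against 99.3 and 59.5 CPM in the dual blockade (-0.90 ± 0.33, unadjusted p under 0.05). Per1, a clock repressor, was at 15.2 and 12.6 CPM in the triple combination, against 43.8 and 23 CPM in the dual blockade (-1.26 ± 0.38, unadjusted p under 0.05). For these 3 genes replicate A of the dual blockade was the highest library. Gpr39, a zinc-sensing receptor, was at 4.08 and 2.99 CPM in the triple combination and 11.5 and 7.22 CPM in the dual blockade (-1.41 ± 0.38, unadjusted p under 0.05). Upp1, uridine phosphorylase, was at 53.6 and 31.8 CPM in the triple combination and 67.4 and 69.9 CPM in the dual blockade, and Klhl25, a ubiquitin ligase adaptor, was at 13.5 CPM in each triple library and 17.4 and 17.5 CPM in the dual blockade.

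**Figure D4:**
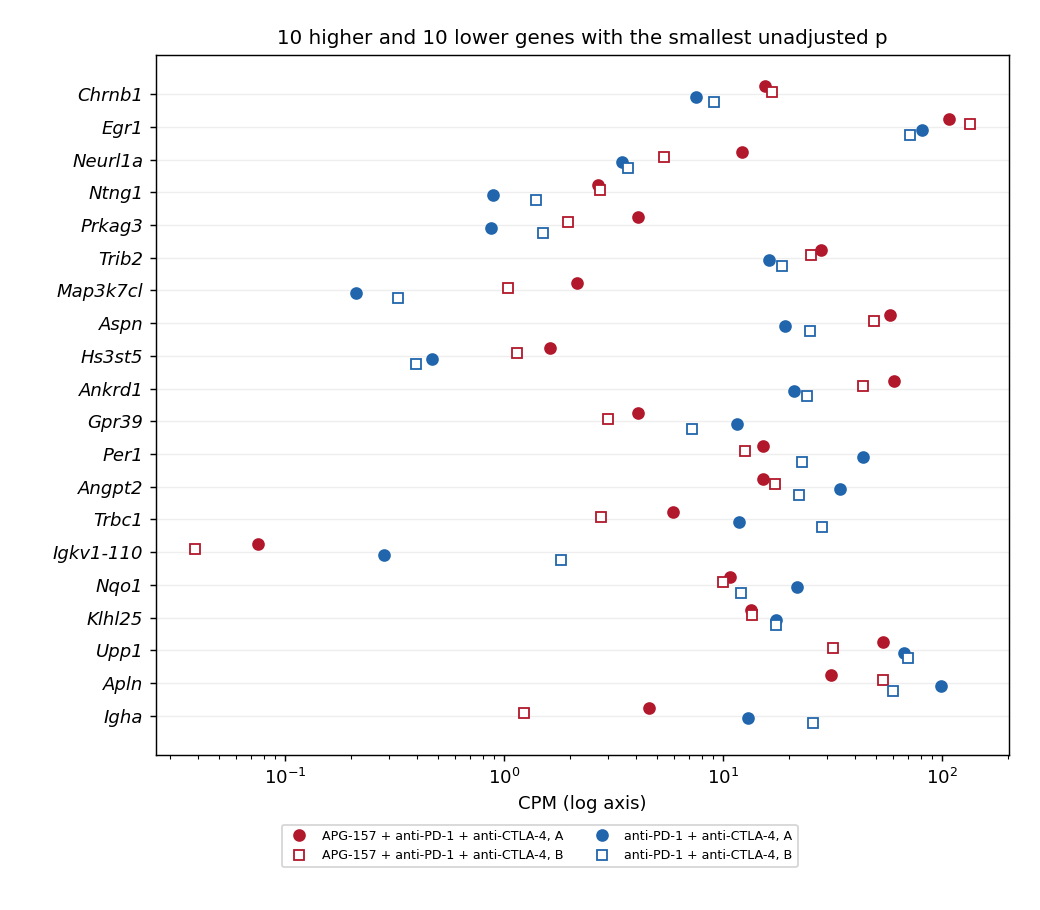
CPM on a log axis of the 10 higher and 10 lower named genes with the smallest unadjusted p among those whose groups did not overlap, with the triple combination in red and the dual blockade in blue (filled circles replicate A, open squares replicate B). Both red points lie to the right of both blue points for the upper 10 genes, as the selection required, for example 58.1 and 49.1 against 19.2 and 24.9 CPM for Aspn.

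Of the 40 genes that DESeq2 called on the 4 libraries alone, Aspn, Ankrd1, Chrnb1, Trbc1, Igha, Ccr1, Eln and the sex-linked Uty are described above. Their adjusted p by DESeq2 lay between 4.16e-07 (Eln) and 0.0389 (Trbc1). Another 2 were chosen here after their values were seen. Dpt, a dermal matrix protein, was at 35.9 and 50.5 CPM in the triple combination and 18.1 and 18.3 CPM in the dual blockade, and Cxcl13, a B cell chemokine, was at 1.3 and 0.427 CPM in the triple combination and 8.82 and 6.04 CPM in the dual blockade. Other lower calls were the olfactory receptor genes Olfr2, Olfr1031, Olfr1264 and Olfr1310, the vomeronasal receptor gene Vmn2r95 and predicted genes such as Gm10800. Olfr2 had 40 and 37 counts in the triple combination and 152 and 232 in the dual blockade. Gm10800 had 53 and 134 counts in the triple combination and 319 and 1105 in the dual blockade. The cause of these differences was not tested. The edgeR fit of the same 4 libraries called 0 genes, with 414 at an unadjusted p under 0.05.

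A further 15 genes were at 0 in both libraries of one group with at least 10 counts in each of the other. Of these, 9 were counted in the dual blockade only, led by Gm14288 (0 and 0 counts in the triple combination, 384 and 470 in the dual blockade), Gm12896 (0 and 0 in the triple combination, 81 and 223 in the dual blockade) and Gm48583 (0 and 0 in the triple combination, 121 and 101 in the dual blockade). Set against 3 counts over the group, Gm14288 was at least 297-fold lower in the triple combination. The other 6 were counted in the triple combination only, led by Gm12895 (69 and 151 counts in the triple combination, 0 and 0 in the dual blockade), which was at least 70.2-fold higher. Such genes switched between libraries of other groups too: Gm14288 had counts in 11 and Gm12895 in 9 of the other 16 libraries.

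The last question was whether APG-157 made the same difference beside the antibody pair as beside anti-CTLA-4, beside anti-PD-1 and beside control. The differences of differences share no library between their 2 sides. Beside anti-CTLA-4, 1 of 19567 genes (0.00511%) passed an adjusted p of 0.05, the predicted gene Gm43802. Its levels were 12.7 and 2.35 CPM in the triple combination and 8.92 and 10.4 CPM in the dual blockade, and 13.6 and 12.8 CPM in APG-157 + anti-CTLA-4 with 0 in both anti-CTLA-4 libraries (adjusted p = 0.0376, edgeR). No fold is given against a group at 0. At an unadjusted p under 0.05, 1656 genes had a positive and 1300 a negative difference in this comparison. Beside anti-PD-1 (121 positive, 77 negative) and beside control (108 positive, 69 negative) edgeR called 0 genes after adjustment, where DESeq2 on all 20 libraries called 4 and 8. The 2 libraries of APG-157 + anti-CTLA-4 lay unusually close, with a biological coefficient of variation of 4.23%. The other 9 groups had 20.9 to 68.3%. Counts of the close pair differed by more than sampling noise (chi-square per degree of freedom 11). Such an excess cannot tell 2 tumors from 2 preparations of 1 tumor. For flow cytometry and staining, the paper mentions a single small tumor of this group. Which tumors were sequenced is not stated. The call of Gm43802 took the close pair as separate samples. With the pair summed, that group holds 1 sample, so that fit cannot decide whether the call holds. Of the 8 libraries compared, only the 4 triple and dual ones were left out in turn. The count was 0 without either of the dual libraries, and 3 without replicate B of the triple combination.

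Among named genes, Aspn had the smallest unadjusted p in that comparison, without passing adjustment. Beside anti-CTLA-4 it was at 3.28 and 4.71 CPM with APG-157 and 29.2 and 40.9 CPM without, the opposite order to the 58.1 and 49.1 CPM of the triple combination and the 19.2 and 24.9 CPM of the dual blockade. The difference of the 2 log2 fold changes was 4.41 ± 0.64 (adjusted p = 0.118, edgeR on all 20 libraries). With only the compared libraries fitted by edgeR it passed (adjusted p = 0.0389). Both fits took the 2 unusually close libraries of APG-157 + anti-CTLA-4 as separate samples. Ntng1, a netrin-like membrane protein, was ordered in the same way, at 0.544 and 0.475 CPM with APG-157 beside anti-CTLA-4 and 2.03 and 2.10 CPM without, against 2.70 and 2.73 CPM in the triple combination and 0.896 and 1.40 CPM in the dual blockade. Egr1 was at 82.5 and 98.4 CPM in APG-157 and 104 and 166 CPM in control, and its difference of log2 fold changes against that pair was 1.24 ± 0.28 (unadjusted p under 0.05). Nqo1 was at 13.2 and 12.5 CPM in APG-157 + anti-PD-1 and 9.45 and 10.4 CPM in anti-PD-1, and its difference against that pair was -1.09 ± 0.34 (unadjusted p under 0.05). Neither Egr1 nor Nqo1 passed adjustment by edgeR, whereas Egr1 passed in DESeq2 on all 20 libraries (adjusted p = 0.043).

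**Figure D5:**
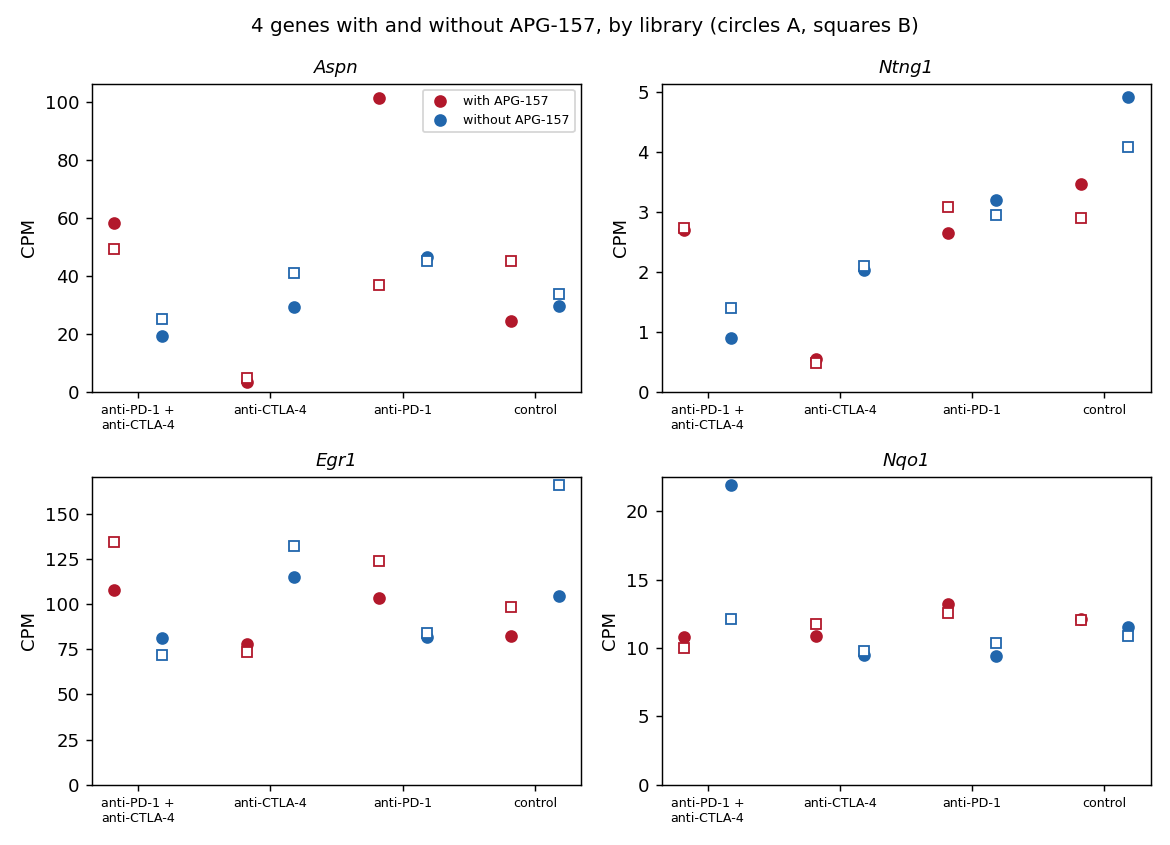
CPM by library of Aspn, Ntng1, Egr1 and Nqo1 with APG-157 (red) and without it (blue) in 4 settings: beside anti-PD-1 + anti-CTLA-4, anti-CTLA-4, anti-PD-1 and control (filled circles replicate A, open squares replicate B). Aspn and Ntng1 are higher with APG-157 beside the antibody pair and lower with it beside anti-CTLA-4 alone, where Aspn was at 3.28 and 4.71 CPM against 29.2 and 40.9 CPM.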

How the data were processed

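Tumor mRNA libraries (KAPA mRNA HyperPrep) were sequenced by the authors, trimmed with Trimmomatic 0.39 and quantified with Salmon 1.5.0 on GRCm39, per the submitters' processing notes. The deposited table holds expected counts per gene, not scaled for depth (71.5% of values whole). A second table that the authors deposited, of normalized log2 values, was not used. The 20 columns all matched a sample label. Counts were rounded, kept where filterByExpr found enough reads (at least 10 in the smallest group size, 15 in all; 10 groups), scaled by TMM and fitted with edgeR 4.0.16 (quasi-likelihood, robust; R 4.3.3) on all 20 libraries with 10 residual degrees of freedom. A gene was called where its p, adjusted by Benjamini-Hochberg over all genes tested, was below 0.05. DESeq2 1.42.0 was an alternative. Symbols were matched by gene identifier (51484 of 54309), and where identifiers shared a symbol, the one with the most counts was used. Named genes were the 10 higher and 10 lower genes with the smallest unadjusted p among genes that are not predicted genes, with non-overlapping groups and a mean of at least 1 CPM in one group, checkpoint genes, genes discussed in the study, and up to 4 members of each described list by p with its defining members. The members and lists were chosen with earlier results of these data known. Some genes of the lists are not reported here. The scripts were tested on simulated data. Replicate letters were not treated as pairs in the main fit. Deviations of A and B correlated at -0.06 between the 2 groups, and at -0.381 to 0.705 over the 45 pairs of groups. With a single difference per group, such correlations cannot settle whether the letters mark a batch.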

Additional observations from a re-analysis of the deposited data

Results flagged for a closer look

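One result was singled out because the effect of APG-157 differed between settings by a test of the difference itself. The predicted gene Gm43802 differed between APG-157 added to anti-PD-1 + anti-CTLA-4 and APG-157 added to anti-CTLA-4 (edgeR quasi-likelihood interaction, adjusted p = 0.0376). It had 672 and 121 counts in the triple combination and 378 and 599 in the dual blockade, and 922 and 703 counts in APG-157 + anti-CTLA-4 against 0 and 0 in anti-CTLA-4. It was also at 0 in both libraries that received anti-CD8 with APG-157 and anti-CTLA-4. The test took the 2 unusually close libraries of APG-157 + anti-CTLA-4 as separate samples, which the labels do not establish. Groups of 2 libraries are too small for a search for outlying samples.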

How the results depend on the processing

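For the triple combination against the dual blockade, edgeR called 0 genes under every alternative run. DESeq2 called 2 genes on all 20 libraries and 40 on the 4 compared libraries. For the difference between adding APG-157 to the antibody pair and to anti-CTLA-4 (1 gene), the count was 2 with no low-count filter, 4 in edgeR and 1706 in DESeq2 on the compared libraries only, 503 in DESeq2 on all 20 libraries, and 0 with the close pair of libraries summed. It was 0 when the anti-CD8, APG-157 and anti-CTLA-4 library B was dropped, and between 0 and 3 when each triple or dual library was left out in turn (0 without either dual library, 3 without triple replicate B). Against anti-PD-1, DESeq2 called 4 genes on all 20 libraries and 6 on the compared ones, and against control 8 and 4. The cause was not tested. With a replicate block the counts were 0, 1, 0 and 0 genes for these 4 comparisons, so the block changed no call. Of 67 named genes, 64 kept their sign under all 15 alternatives. Libraries with anti-CTLA-4 or anti-PD-1 alone, with or without APG-157, and those of APG-157 and control were not left out in turn. On leaving out 1 library, log2 fold changes ran between -3.26 and 1.55 for Mmp12 (1.55 without dual replicate A), -3.40 and 0.045 for Cd8a, and -1.45 and 0.015 for Irf1, the positive values of Cd8a and Irf1 without triple replicate B. Of the 67 named genes, 7 passed for the triple combination against the dual blockade, and only in DESeq2 on the compared libraries. These 7 are among the 40 genes of that fit. With 2 libraries a group, the spread between libraries limits every comparison.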
